A study of Homo sapiens with 9 samples.

Results

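XBP1 and 39 further genes of folding, quality control and export in the endoplasmic reticulum (ER) were followed through the depletion of LSD1 in a lymphoma cell line. The 40 genes were chosen by their roles, with earlier results of these data known. All 40 are among the 26816 genes of the count table. Of these, 38 had enough reads to be among the 15725 genes tested. The remaining pair, DERL3 and CREB3L2, had at most 10 and 5 reads in any library and were not tested.

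The cells were OCI-Ly1, an established human line from a diffuse large B-cell lymphoma with germinal-centre features, and their polyadenylated RNA was sequenced in 9 libraries. All cells carried a pLKO1 shRNA and were selected with puromycin. Cells of the control group (shSCR, n = 3) carried a non-targeting shRNA, and the others carried 1 of 2 shRNAs against KDM1A, the gene of the histone demethylase LSD1 (sh68 and sh72, n = 3 each). The replicates are described as biological triplicates of 1 cell line, and no clone, passage or time after selection is given. The names sh68 and sh72 are those of the count table; the sample titles number the shRNAs instead, and no label joins the numbers to the names.

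Counted reads numbered 29506767 to 35270849 per library. Levels are given as CPM, a gene's reads relative to the scaled size of its library. KDM1A was at 119.9 to 122.8 CPM in the shSCR libraries, 23.4 to 25.8 with sh68 and 19.1 to 22.7 with sh72. Markers of B cells summed to 4157 to 4295 CPM in shSCR, 4125 to 4249 with sh68 and 2606 to 2773 with sh72. Those of germinal-centre B cells summed to 1435 to 1485, 1862 to 1890 and 1232 to 1301 CPM. T-cell, monocyte and fibroblast markers summed to at most 4.42 CPM in any library. Plasma cell markers, given below beside MZB1, summed to 1093 to 1163 CPM in shSCR. The sets present were thus those of the B lineage. In such bulk libraries, fewer cells of a type and less RNA per cell cannot be told apart.

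Proteins bound for secretion or the cell surface enter the ER through the SEC61 channel, fold there with chaperones and disulfide isomerases, and leave in COPII vesicles, while those that fail are pulled out and degraded. When unfolded protein builds up, the sensors IRE1 (ERN1), PERK (EIF2AK3) and ATF6 start the unfolded protein response, in which IRE1 splices XBP1 mRNA into the form that encodes the active transcription factor. In the B lineage XBP1 is best known for the expansion of the secretory apparatus when B cells become plasma cells.

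The response acts on promoters through short elements, so the promoters of 6 members are printed with theirs. The ER stress element is CCAAT, then 9 bases, then CCACG, and is bound by ATF6 or XBP1 together with the CCAAT-binding factor NF-Y. The ER stress element II is ATTGG, then 1 base, then CCACG. Both were searched as exact matches on both strands of RefSeq promoter windows on GRCh38.p14, from 250 bases before to 50 after a start. XBP1 (chr22:28800520-28800819), HSPA5 (chr9:125241294-125241593), PDIA6 (chr2:10812736-10813035) and HYOU1 (chr11:119057156-119057455) lie on the minus strand. HSP90B1 (chr12:103930160-103930459) and HERPUD1 (chr16:56931892-56932191) lie on the plus strand. Capitals mark the ER stress element in XBP1, HSPA5, PDIA6 and HSP90B1, with the second match in HSP90B1 reading on the opposite strand. In HERPUD1 they mark the ER stress element II, and in HYOU1 the pair of these elements on the opposite strand, of which the first overlaps a match to the UPR element core TGACGTGG.
XBP1: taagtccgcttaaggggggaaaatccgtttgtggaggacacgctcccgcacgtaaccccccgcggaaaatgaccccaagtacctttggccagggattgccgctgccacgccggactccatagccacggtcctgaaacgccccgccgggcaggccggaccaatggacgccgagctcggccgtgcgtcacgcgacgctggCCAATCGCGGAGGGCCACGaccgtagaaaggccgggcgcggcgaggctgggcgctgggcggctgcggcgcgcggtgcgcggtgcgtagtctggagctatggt
HSPA5: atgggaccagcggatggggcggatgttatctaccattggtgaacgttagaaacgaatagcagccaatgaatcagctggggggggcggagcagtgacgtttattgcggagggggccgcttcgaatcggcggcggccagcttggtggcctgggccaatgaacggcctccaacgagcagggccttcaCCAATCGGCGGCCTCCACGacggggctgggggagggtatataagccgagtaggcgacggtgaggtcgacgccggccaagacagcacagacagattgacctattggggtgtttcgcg
PDIA6: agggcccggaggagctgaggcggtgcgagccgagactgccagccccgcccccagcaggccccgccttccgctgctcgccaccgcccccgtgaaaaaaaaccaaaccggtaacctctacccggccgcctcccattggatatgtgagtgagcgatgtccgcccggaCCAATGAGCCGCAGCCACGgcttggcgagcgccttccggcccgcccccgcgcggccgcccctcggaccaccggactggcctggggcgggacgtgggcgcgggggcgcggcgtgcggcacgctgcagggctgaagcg
HSP90B1: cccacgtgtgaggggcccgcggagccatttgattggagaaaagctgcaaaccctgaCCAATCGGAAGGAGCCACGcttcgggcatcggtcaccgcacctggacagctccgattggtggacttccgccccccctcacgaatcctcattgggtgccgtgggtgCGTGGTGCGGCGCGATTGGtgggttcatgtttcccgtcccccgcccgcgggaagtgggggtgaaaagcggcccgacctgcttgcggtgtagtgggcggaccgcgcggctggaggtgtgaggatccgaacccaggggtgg
HYOU1: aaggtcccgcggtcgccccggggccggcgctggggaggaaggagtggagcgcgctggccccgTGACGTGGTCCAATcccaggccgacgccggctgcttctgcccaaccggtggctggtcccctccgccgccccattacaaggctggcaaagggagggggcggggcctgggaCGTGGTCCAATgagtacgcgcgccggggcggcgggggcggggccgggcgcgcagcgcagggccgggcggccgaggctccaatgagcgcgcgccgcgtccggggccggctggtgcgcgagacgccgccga
HERPUD1: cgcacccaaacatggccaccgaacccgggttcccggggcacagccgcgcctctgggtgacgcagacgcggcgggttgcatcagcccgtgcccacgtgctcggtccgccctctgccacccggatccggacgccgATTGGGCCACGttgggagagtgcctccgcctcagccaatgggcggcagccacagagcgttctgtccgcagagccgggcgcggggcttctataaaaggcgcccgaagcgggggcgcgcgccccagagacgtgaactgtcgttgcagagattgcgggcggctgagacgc

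The RNA of most members changed, by small amounts, and more of them rose than fell. When the 2 LSD1 shRNAs are averaged and set against shSCR (hereafter, on the mean), 21 of 38 tested members rose, 12 fell and 5 did not pass edgeR's quasi-likelihood test at an adjusted p of 0.05. Of all 15725 genes tested, 52.3% passed this comparison, 24.9% higher and 27.5% lower. With sh68 against shSCR, 20 members rose and 12 fell, where 55.5% of all genes passed, 27.4% higher and 28.1% lower. With sh72 against shSCR, 18 rose and 9 fell (22 and 6 when libraries are scaled by their size only), where 51.0% of all genes passed, 24.7% higher and 26.3% lower. Both shRNAs are compared with the same shSCR libraries. The members were chosen with earlier results of these data known. Counts by role and by list, given below, stand beside these same shares of all genes. The median log2 fold change of the members was 0.13 on the mean, 0.12 with sh68 and 0.11 with sh72, and that of all tested genes was -0.02, -0.01 and -0.01.

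Most of these changes were small. The median absolute log2 fold change on the mean was 0.20 for the members and 0.20 for all tested genes, and with sh72 it was 0.18 and 0.23. Tested against a minimum change of 1.5-fold, 2 members passed on the mean (XBP1 and AGR2, both higher), beside 5.71% of all genes. With sh68 4 passed (XBP1, EIF2AK3 and AGR2 higher, SEL1L lower), beside 9.39%. With sh72 AGR2 alone passed, beside 6.90%. The members were read more deeply than most genes, with a median of 106.7 CPM over all libraries against 17.1 for all tested genes. Among the 2431 genes at or above that median, a limit set after the values were seen, 63.8% passed on the mean, 26.8% higher and 36.9% lower. Of the 19 members at or above it, 11 rose, 4 fell and 4 did not pass. In the fit that takes the 6 LSD1 libraries as 1 group, 11 members rose and 6 fell, where 22.8% of all genes passed, and without shSCR replicate 2 the number that fell on the mean was 7.

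**Figure D1:**
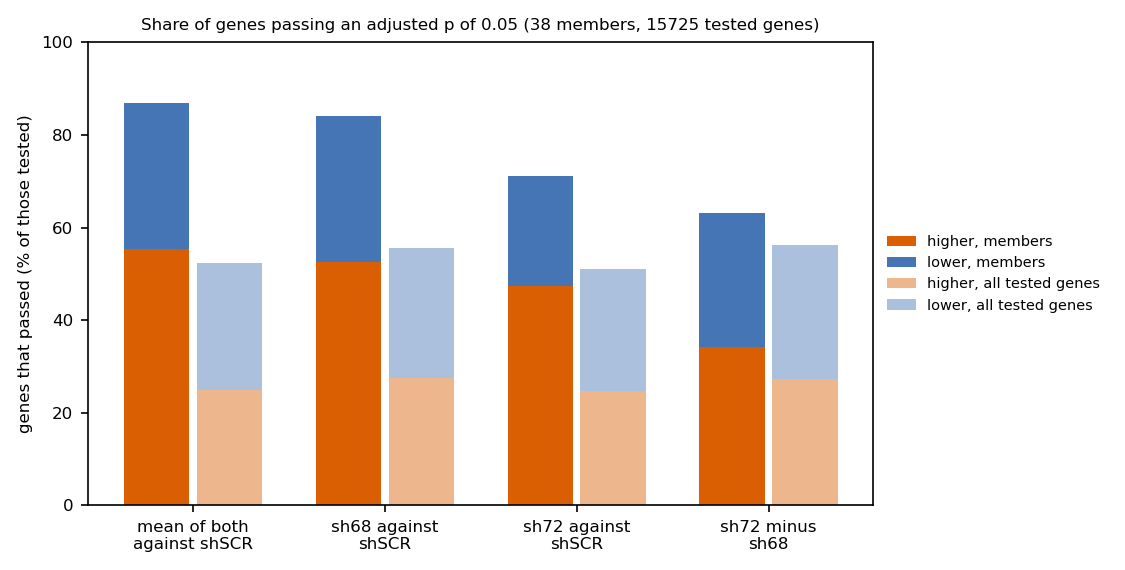
Share of genes (y axis, % of those tested) that passed an adjusted p of 0.05 in each of 4 comparisons, for the 38 tested members (full colour) and all 15725 tested genes (pale), split into higher (orange) and lower (blue). On the mean of both shRNAs 86.8% of the members passed and 52.3% of all genes.

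The members together took a larger share of all reads with each LSD1 shRNA. They held 0.568%, 0.555% and 0.549% of counts in the shSCR libraries, 0.602%, 0.600% and 0.614% with sh68, and 0.625%, 0.606% and 0.624% with sh72. Every LSD1 library lay above every control. Without HSPA5 and CANX, the members with the most reads, the range was 0.425% to 0.435% in shSCR, 0.455% to 0.467% with sh68 and 0.461% to 0.469% with sh72. The rise was uneven between roles. The summed level of the 10 chaperones and cochaperones was 1645 to 1734 CPM in shSCR, 1835 to 1876 with sh68 and 1812 to 1958 with sh72. That of the 11 genes of ER-associated degradation went the other way, from 1248 to 1262 CPM in shSCR to 1202 to 1233 with sh68 and 1113 to 1144 with sh72.

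**Figure D2:**
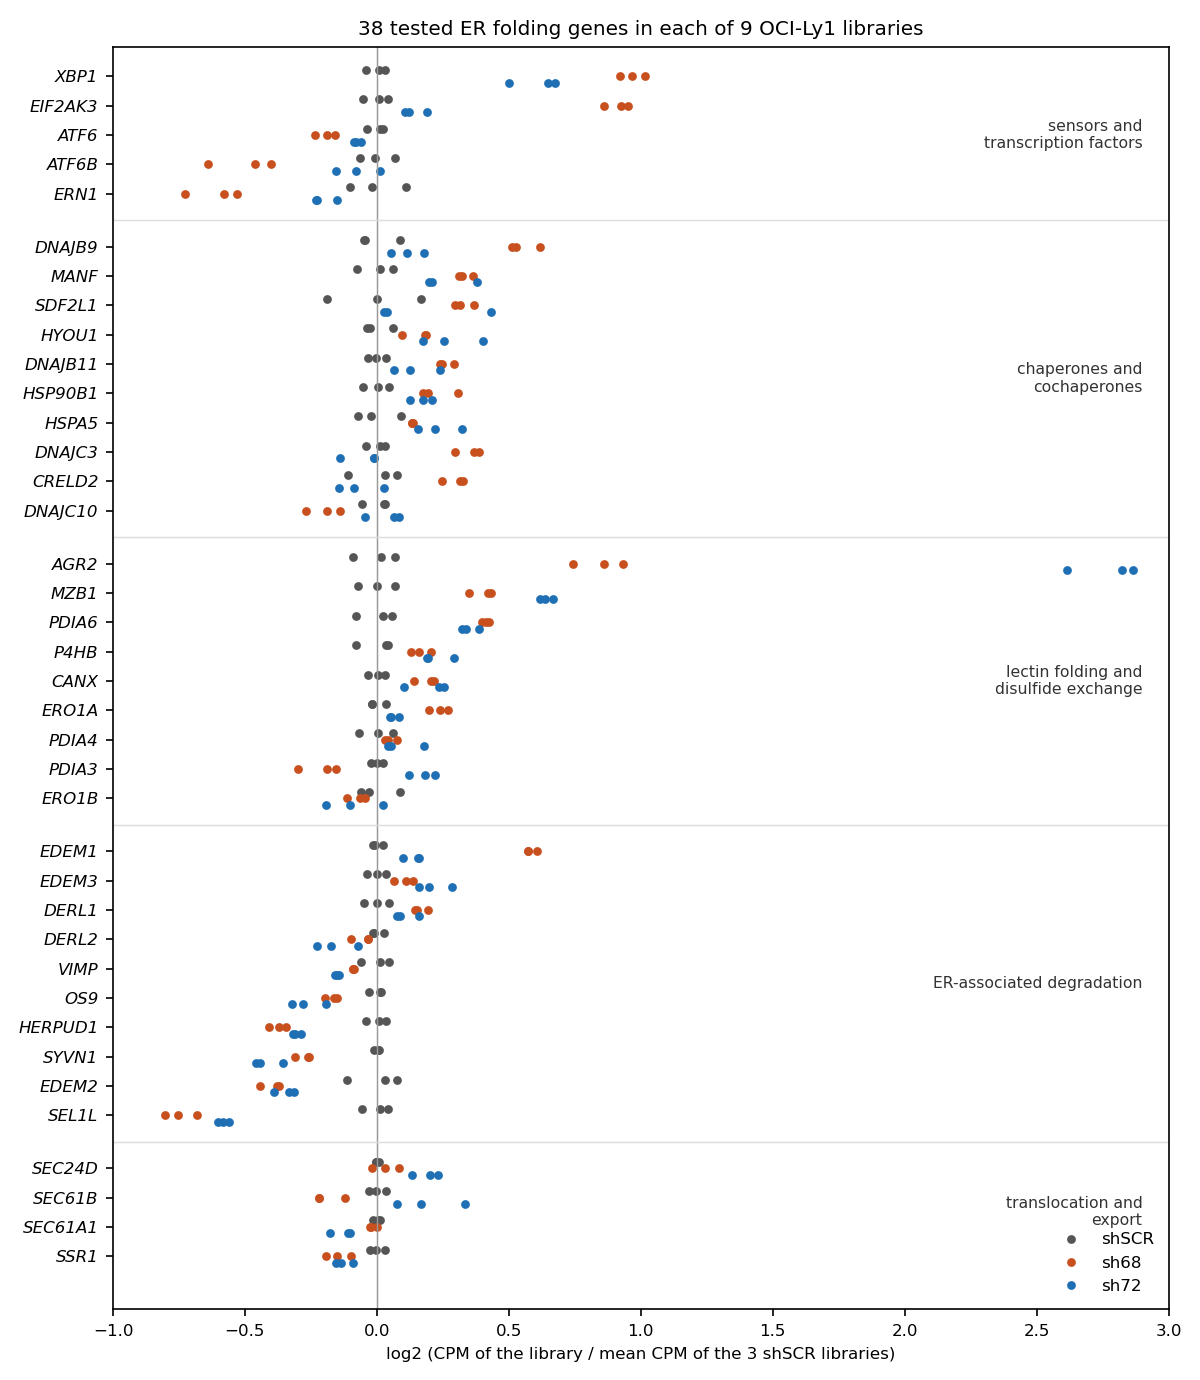
Level of each of the 38 tested members in each of the 9 libraries, as log2 of its CPM over the mean of the 3 shSCR libraries (x axis), grouped by role and ordered by the change on the mean (shSCR grey, sh68 orange, sh72 blue). AGR2 with sh72 lies farthest to the right and SEL1L farthest to the left.

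Among the sensors and transcription factors, XBP1 and PERK rose while IRE1, ATF6 and ATF6B fell on the mean. With the LSD1 libraries as 1 group XBP1 alone passed, and EIF2AK3, ERN1, ATF6 and ATF6B did not (adjusted p = 0.089, 0.072, 0.106 and 0.23). XBP1 (chr22:28794560-28800569) was read at 42.0, 41.4 and 40.0 CPM in the shSCR libraries, 83.2, 78.0 and 80.5 with sh68, and 65.6, 58.2 and 64.5 with sh72. The 3 groups did not overlap, with sh68 the highest. XBP1 rose 1.96-fold with sh68 (log2 fold change 0.97 ± 0.0499 SE, adjusted p = 6.32e-14) and 1.53-fold with sh72 (0.61 ± 0.0507, adjusted p = 5.39e-10). Set against sh68, the sh72 libraries were lower, with a log2 difference of -0.36 ± 0.0481 (adjusted p = 8.25e-07). Counts per gene hold the spliced and unspliced forms of XBP1 together, so the active form was not measured.

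EIF2AK3 (chr2:88556741-88628145) encodes PERK, the kinase that slows translation during ER stress. Its level was 48.0, 50.03 and 51.2 CPM in shSCR, 96.2, 90.2 and 94.3 with sh68, and 54.1, 53.5 and 56.8 with sh72. The sh68 libraries stood far above the rest, and the sh72 libraries lay just above the controls. The rise was 1.88-fold with sh68 (0.91 ± 0.0451, adjusted p = 3.04e-14) and 1.10-fold with sh72 (0.14 ± 0.0464, adjusted p = 0.0140), and the latter did not pass without shSCR replicate 1 (adjusted p = 0.051). The difference between the shRNAs, at -0.77 ± 0.0446, was the lowest of all members (adjusted p = 5.24e-13).

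ERN1 (chr17:64039142-64130144), which encodes IRE1, the nuclease that splices XBP1 mRNA, was lower with sh68 (log2 fold change -0.61 ± 0.104, adjusted p = 2.64e-05). It was read at 6.25, 6.61 and 7.24 CPM in shSCR, 4.64, 4.05 and 4.49 with sh68, and 5.71, 5.72 and 6.04 with sh72. All sh72 libraries lay below all controls, but the log2 fold change of -0.20 did not pass (adjusted p = 0.0990). ATF6, a transcription factor released from the membrane by cleavage, fell by 0.19 with sh68 (adjusted p = 0.00124) and did not pass with sh72 (-0.08, adjusted p = 0.192). Its call on the mean was lost without shSCR replicate 2 or 3 (adjusted p = 0.051 and 0.054). Its paralog ATF6B had few reads, at 4.16 ± 0.189 CPM in shSCR, 2.948 ± 0.248 with sh68 and 3.96 ± 0.232 with sh72, and fell with sh68 alone (-0.49, adjusted p = 0.00151). CREB3L2, a related membrane-bound factor, had 0 to 5 reads per library.

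**Figure D3:**
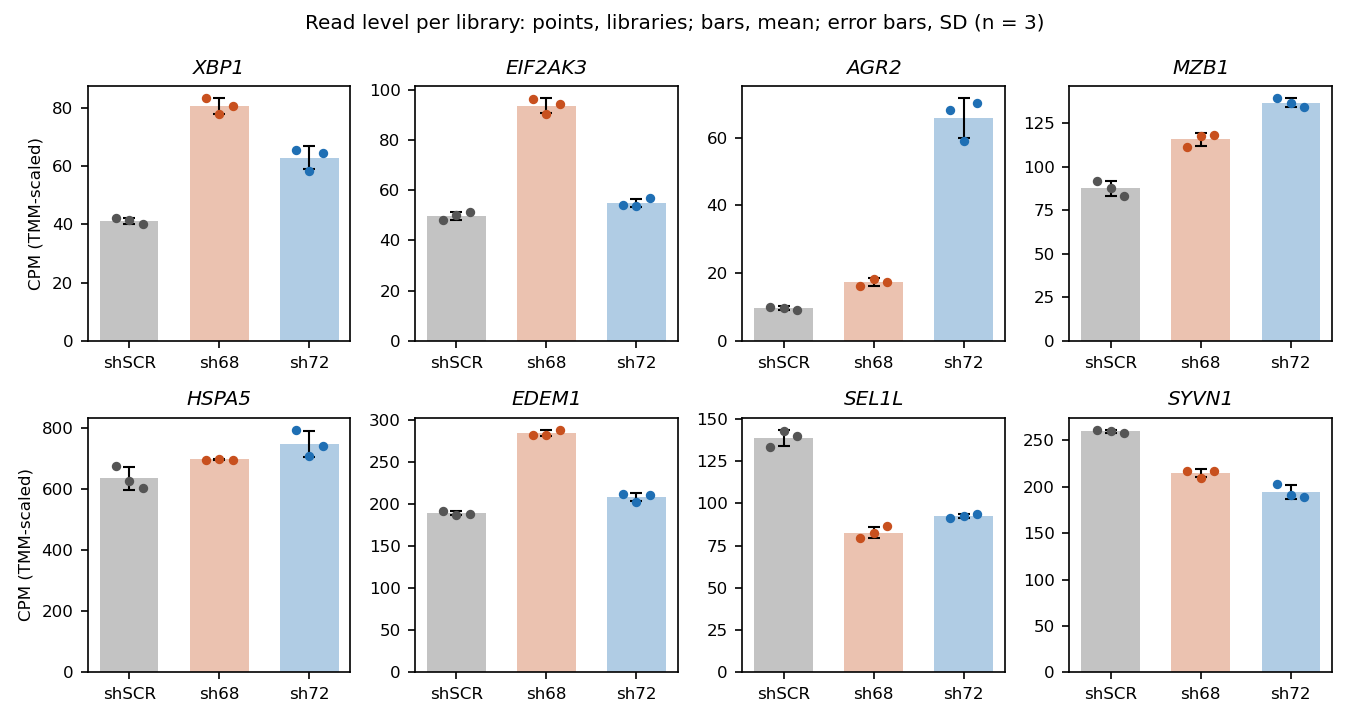
CPM (y axis, from 0) of 8 members in shSCR, sh68 and sh72 libraries; points are libraries, bars are means and error bars are SD (n = 3). EIF2AK3 and EDEM1 are highest with sh68, AGR2 and MZB1 with sh72, and SEL1L and SYVN1 are highest in shSCR.

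Chaperones of the HSP70 and HSP90 systems rose on the mean, all by less than 1.5-fold. Of 10 members, 9 rose on the mean and 0 fell; 9 rose and 1 fell with sh68, and 5 rose and 0 fell with sh72. With the LSD1 libraries as 1 group, 5 rose (HSPA5, HSP90B1, HYOU1, DNAJB11 and MANF), and DNAJB9, DNAJC3, SDF2L1 and CRELD2 did not pass (adjusted p = 0.089, 0.37, 0.13 and 0.47). HSPA5 (chr9:125234853-125241343), which encodes BiP, the HSP70 of the ER that also holds the sensors inactive, was read at 676, 625.3 and 604 CPM in shSCR. It was read at 696, 699 and 696 CPM with sh68 and at 795, 708 and 741 with sh72, above every control. With sh68 it rose by 0.13 ± 0.0433 (adjusted p = 0.0112), which did not pass without shSCR replicate 3 (adjusted p = 0.069). With sh72 it rose by 0.24 ± 0.0433 (adjusted p = 7.37e-05). HSP90B1, the ER HSP90 (GRP94), rose by 0.23 and 0.17, and HYOU1, which exchanges nucleotide on BiP, by 0.15 and 0.28. MANF, a cofactor of BiP that is also secreted, was at 61.8 ± 2.89 CPM (mean ± SD, n = 3) in shSCR, 77.8 ± 1.48 with sh68 and 74.2 ± 5.33 with sh72, a rise of 0.33 and 0.26.

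J-domain cochaperones direct BiP to its clients. DNAJB9 was read at 29.3, 32.2 and 29.3 CPM in shSCR, 46.5, 43.6 and 43.2 with sh68, and 31.4, 32.7 and 34.2 with sh72. With sh68 it rose 1.47-fold (0.55 ± 0.0545, adjusted p = 7.65e-09), and with sh72, whose libraries overlap the controls, it did not pass (0.12, adjusted p = 0.0919). DNAJC3 was also highest with sh68, at 83.1 ± 2.19, 106 ± 3.46 and 80.2 ± 4.08 CPM in shSCR, sh68 and sh72, and its -0.05 with sh72 did not pass (adjusted p = 0.345). DNAJB11 rose with both, by 0.26 and 0.14. DNAJC10, which reduces disulfides of proteins bound for degradation, was the only chaperone that fell with sh68 (-0.20 ± 0.0419, adjusted p = 3.09e-04), and with sh72 it did not pass (0.04, adjusted p = 0.498). CRELD2 rose with sh68 by 0.30 (adjusted p = 4.89e-05), had -0.06 with sh72 (adjusted p = 0.337) and differed between them by -0.36 (adjusted p = 3.29e-06). SDF2L1, a partner of DNAJB11, rose by 0.33 with sh68, and its 0.18 with sh72 did not pass (adjusted p = 0.0876). With DESeq2 its sh68 value did not pass either (adjusted p = 0.054), while with no filter its sh72 value did (0.0068). Exons of DNAJB9 and DNAJB11 overlap those of THAP5 and TBCCD1 on the opposite strand, over 6.74% and 15.9% of their length. THAP5 had up to 1813 reads in a library beside 920 to 1532 of DNAJB9, and TBCCD1 up to 1366 beside 4410 to 6594 of DNAJB11. Reads of such pairs cannot be told apart where the strand is not used, and the strand setting of the counting is not given.

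Of 9 genes of lectin-assisted folding and disulfide exchange, 6 rose on the mean and 0 fell. With sh68 6 rose and 1 fell, and with sh72 6 rose and 0 fell. With the LSD1 libraries as 1 group 5 rose, and ERO1A did not pass (adjusted p = 0.11). AGR2 (chr7:16791811-16804999), a disulfide isomerase best known from mucus-secreting epithelium, had the largest change of any member. It was read at 10.1, 9.73 and 9.06 CPM in shSCR, 16.1, 18.4 and 17.5 with sh68, and 68.1, 59.0 and 70.2 with sh72. The 3 groups lay far apart. The rise was 1.801-fold with sh68 (0.85 ± 0.081, adjusted p = 4.61e-09) and 6.82-fold with sh72 (2.77 ± 0.0728, adjusted p = 1.06e-18), and sh72 exceeded sh68 by 1.92 ± 0.0661 (adjusted p = 3.01e-17). Per kb of exon AGR2 went from 4.72 CPM in shSCR, rank 36 of 40 members, to 8.499 with sh68 and 32.2 with sh72.

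MZB1 (chr5:139387467-139389913), a B-cell chaperone that helps to assemble immunoglobulin M, rose with both shRNAs. Its level was 91.9, 87.8 and 83.5 CPM in shSCR, 112, 118 and 118 with sh68, and 139, 136 and 134 with sh72. The groups did not overlap, and the log2 fold changes were 0.40 ± 0.0421 (adjusted p = 2.23e-08) and 0.64 ± 0.042 (adjusted p = 9.01e-12). The 6 plasma cell markers summed to 1093 to 1163 CPM in shSCR, 1762 to 1903 with sh68 and 1617 to 1837 with sh72. Most of that sum was JCHAIN, the joining chain of secreted immunoglobulin, at 1107 ± 37.3, 1808 ± 71.997 and 1697 ± 113 CPM, while PRDM1 and SLAMF7 stayed under 1 CPM. The sum therefore follows JCHAIN and does not show how the other markers moved. The part of these markers, and of the B-cell markers that were lower with sh72, in the changes of the members was not tested.

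PDIA6, a disulfide isomerase that also dampens the sensors, rose by 0.41 ± 0.0388 with sh68 and 0.35 ± 0.0389 with sh72. It was read at 181, 177 and 165 CPM in shSCR, 229, 232 and 234 with sh68, and 227, 219.9 and 218 with sh72, so that no LSD1 library overlapped the controls. Its exons overlap those of ATP6V1C2 on the opposite strand over 29.7% of their length, and ATP6V1C2 had at most 119 reads in a library. CANX, the membrane lectin calnexin, rose by 0.19 and 0.20, and P4HB, the founding disulfide isomerase, by 0.16 and 0.23. PDIA3, the isomerase that works with calnexin, moved in opposite directions, with 371, 365 and 359.8 CPM in shSCR, 297, 320.4 and 328 with sh68, and 425, 398 and 414 with sh72. It fell by 0.21 with sh68 (adjusted p = 7.94e-05) and rose by 0.18 with sh72 (adjusted p = 6.72e-04), a difference of 0.39 ± 0.0396 (adjusted p = 1.27e-08). Exons of PDIA3 overlap those of ELL3 on the opposite strand over 16.8% of their length, and ELL3 had up to 9078 reads in a library beside 9683 to 14580 of PDIA3. ERO1A, which feeds oxidizing power to the isomerases, rose with sh68 (0.24, adjusted p = 1.83e-05), and its 0.06 with sh72 did not pass (adjusted p = 0.200). Every sh72 library lay above every control, and with scaling by size only the sh72 rise passed (adjusted p = 0.033). The shRNAs differed by -0.17 (adjusted p = 5.21e-04). ERO1B and PDIA4 passed in neither. With sh72, PDIA4 did pass with RLE scaling (adjusted p = 0.042), scaling by size only (0.0058), no filter (0.032) and the replicate block (0.021).

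**Figure D4:**
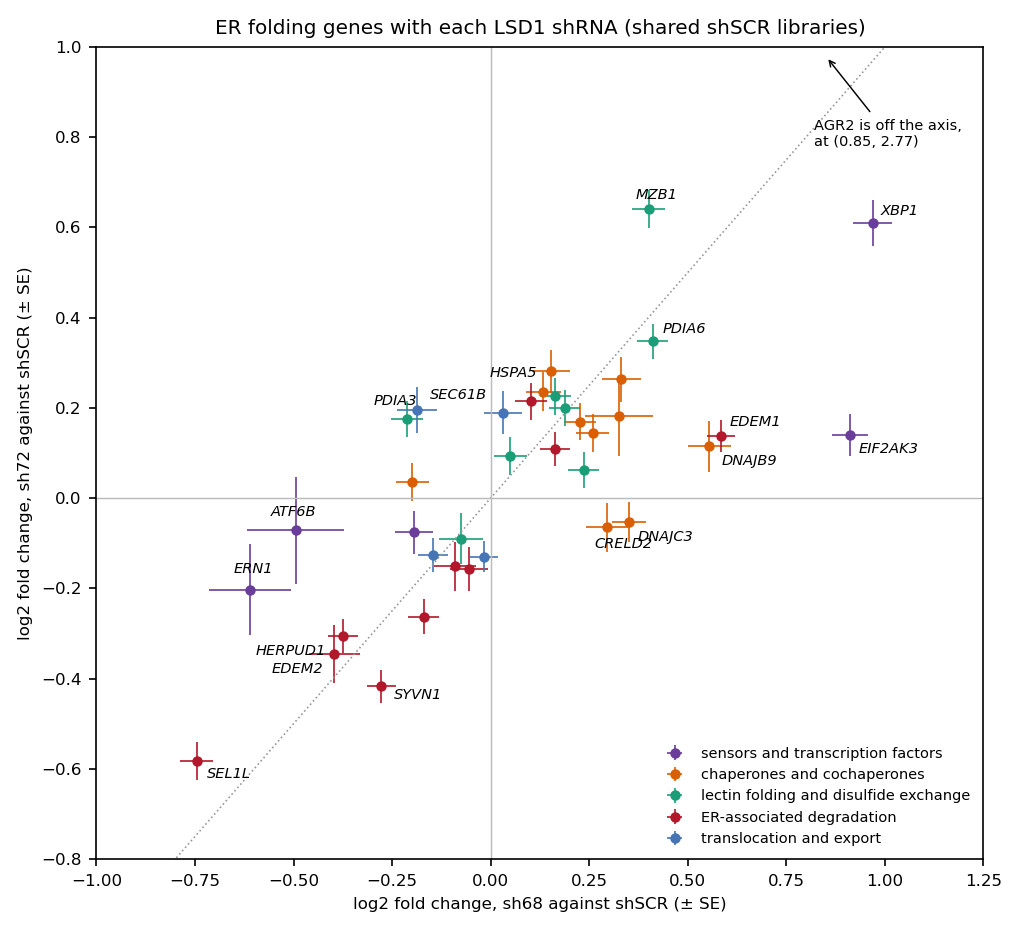
Log2 fold change of each tested member with sh68 (x axis) and sh72 (y axis) against the same shSCR libraries, with SE bars, coloured by role; the dotted line marks equal values. EIF2AK3, EDEM1 and DNAJB9 lie below it, MZB1 lies above it, PDIA3 and SEC61B lie at upper left, and AGR2 is off the axis.

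Genes of ER-associated degradation were divided, with SEL1L and SYVN1 among those that fell. Of 10 tested members, 3 rose and 7 fell on the mean; with sh68 3 rose and 5 fell, and with sh72 3 rose and 7 fell. With the LSD1 libraries as 1 group, 0 rose and 5 fell (SEL1L, SYVN1, HERPUD1, OS9 and EDEM2), and EDEM1, EDEM3, DERL1, DERL2 and VIMP did not pass (adjusted p = 0.062, 0.059, 0.052, 0.20 and 0.12). SEL1L (chr14:81471547-81533853), the scaffold of the membrane ubiquitin ligase SYVN1 (HRD1), fell the most of all members. It was read at 134, 143 and 139.8 CPM in shSCR, 79.6, 82.2 and 86.4 with sh68, and 91.4, 92.6 and 94.0 with sh72. No LSD1 library came near the controls, and the fall was 1.68-fold with sh68 (-0.75 ± 0.0415, adjusted p = 2.68e-13) and 1.497-fold with sh72 (-0.58 ± 0.0413, adjusted p = 3.69e-11). SYVN1 itself (chr11:65127279-65134519) was read at 261, 260.3 and 258 CPM in shSCR, 217, 209 and 217 with sh68, and 203, 191 and 189 with sh72. It fell by 0.28 ± 0.0368 (adjusted p = 8.47e-07) and by 0.42 ± 0.037 (adjusted p = 1.59e-09), with sh72 the lower (difference -0.14, adjusted p = 0.00246). Its exons overlap those of MRPL49 over 2.88% of their length, and MRPL49 had up to 5164 reads in a library.

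HERPUD1, which joins that ligase to the derlins, was at 124 ± 3.14 CPM in shSCR, 95.5 ± 2.06 with sh68 and 100.2 ± 1.07 with sh72, and fell by 0.37 and by 0.31. OS9, the lectin that hands it glycoproteins, fell by 0.17 and by 0.26, and EDEM2, which starts the trimming of mannose, fell by 0.40 and by 0.35. DERL2 and VIMP (selenoprotein S) fell with sh72, by 0.16 and by 0.15, and did not pass with sh68 (adjusted p = 0.346 and 0.162). The sh72 call of VIMP was lost with libraries scaled by size only (adjusted p = 0.092), with no filter (0.085), with DESeq2 (0.092) and with only the arms compared (0.052). It was also lost without shSCR replicate 1 (0.15) or 2 (0.083) and without sh72 replicate 2 (0.080) or 3 (0.084). That of DERL2 was lost with scaling by size only (adjusted p = 0.055) and without shSCR replicate 2 (0.057). On the mean, DERL2 and VIMP did not pass with RLE scaling (adjusted p = 0.058 and 0.051) or scaling by size only (0.17 and 0.13). Nor did they with no filter (0.074 and 0.098), with DESeq2 (0.082 and 0.10) or without shSCR replicate 1 (0.10 and 0.23) or 2 (0.18 and 0.13). The members that rose were EDEM1, EDEM3 and DERL1. EDEM1 was read at 192, 187 and 189 CPM in shSCR, 282, 282 and 288 with sh68, and 211, 203 and 211 with sh72. It rose 1.499-fold with sh68 (0.58 ± 0.0353, adjusted p = 1.26e-12) and 1.10-fold with sh72 (0.14 ± 0.0355, adjusted p = 0.00226). EDEM3 rose by 0.10 and 0.21 and DERL1 by 0.16 and 0.11. The sh68 call of EDEM3 was lost with no filter (adjusted p = 0.062), with DESeq2 (0.054) and without shSCR replicate 1 (0.10) or 2 (0.058) or sh68 replicate 2 (0.051) or 3 (0.091). The sh72 call of DERL1 was lost without shSCR replicate 3 (adjusted p = 0.077) or sh72 replicate 1 (0.090).

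Genes of translocation and export changed by little. Of 4 members, 1 rose and 2 fell on the mean; with sh68 0 rose and 2 fell, and with sh72 2 rose and 2 fell. With the LSD1 libraries as 1 group 0 rose and SSR1 fell, and SEC61A1 and SEC24D did not pass (adjusted p = 0.32 and 0.23). SEC61B, the small subunit of the channel, was read at 109, 106 and 104 CPM in shSCR, 90.9, 97.5 and 90.9 with sh68, and 133, 119 and 112 with sh72. It was below the controls with sh68 (-0.19 ± 0.0513, adjusted p = 0.00355) and above them with sh72 (0.20 ± 0.0508, adjusted p = 0.00237). The channel subunit SEC61A1 fell by 0.13 with sh72 (adjusted p = 0.00351) and had -0.02 with sh68 (adjusted p = 0.709), with 4.04% of its exon length shared with RUVBL1. The sh72 call of SEC61A1 was lost without sh72 replicate 3 (adjusted p = 0.068). SSR1, of the complex beside the channel, fell by 0.15 with sh68 and by 0.13 with sh72. The latter call was lost with libraries scaled by size only (adjusted p = 0.058) and without shSCR replicate 2 (0.069) or sh72 replicate 2 (0.083). SEC24D, which picks cargo for COPII vesicles, rose with sh72 (0.19, adjusted p = 0.00196).

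The share of members that differed between the shRNAs, 63.2%, lay near that of all genes. In sh72 minus sh68, 13 members were higher, 11 lower and 14 did not pass, where 56.2% of all genes passed, 27.2% higher and 29.0% lower. Among the genes at or above the members' median level 70.9% passed, and of the 19 members there 12 did. The median absolute difference was 0.12 for the members and 0.26 for all tested genes. Against a minimum of 1.5-fold 2 members passed, AGR2 (higher with sh72) and EIF2AK3 (higher with sh68), beside 8.87% of all genes. EIF2AK3, EDEM1 (-0.45), DNAJB9 (-0.44), DNAJC3 (-0.40), XBP1 and CRELD2 (both -0.36) had the lowest differences. AGR2, ATF6B (0.42), ERN1 (0.41), PDIA3 (0.39) and SEC61B (0.38) had the highest.

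Per kb of exon, the highest levels in shSCR were those of HSPA5 at 163 CPM, SEC61B at 162, CANX at 148, P4HB at 121 and MZB1 at 106. XBP1 was at 20.2 CPM per kb, rank 21 of 40, and moved to 39.5 with sh68 and 30.8 with sh72. The sensors were among the lowest, with EIF2AK3 at 10.3, ATF6 at 5.74, ATF6B at 1.57 and ERN1 at 0.684 CPM per kb. HSPA5 and SEC61B did not differ beyond their spread, and the others of the highest 5 lay apart in this order.

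RefSeq promoter windows were found for 36 of the 40 members. The ER stress element stood in 7 of the 36 (CANX, CRELD2, ERO1B, HSP90B1, HSPA5, PDIA6 and XBP1), and in 0.0920% of all 27167 genes with a window. By window it stood in 9 of 44 of the members' and in 0.0773% of all 34943, where overlapping windows of CANX hold the same site. The element II stood in 3 (HERPUD1, HYOU1 and SDF2L1), and in 0.0699% of all genes. The UPR element core was in DNAJC10 and HYOU1, and in 0.928% of all genes. In XBP1 the element begins 52 bases before the start, in HSPA5 66, in CRELD2 80 and in PDIA6 86. The members were chosen by their roles, and genes of this response are among them. A higher share than that of all genes was thus built into the choice, and it was not tested. A match is a run of letters and does not show binding.

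Of the 10 tested members with either element, 8 rose on the mean, HERPUD1 fell and ERO1B did not pass, with a median log2 fold change of 0.20. With sh68 8 rose and 1 fell, and with sh72 6 rose and 1 fell. Of the 25 tested members whose windows held neither, 11 rose, 11 fell and 3 did not pass on the mean, with a median of 0.01. With the LSD1 libraries as 1 group, where 22.8% of all genes passed, 6 rose and 1 fell of those with an element. Of those without, 5 rose and 5 fell. AGR2, EIF2AK3, MZB1 and EDEM1, among the largest rises, and SEL1L and SYVN1 were in the group without an element. Outside the members, 34 genes had an element, and of the 23 tested 3 rose, 6 fell and 14 did not pass on the mean, with a median of -0.04. These include CALR, calreticulin, the soluble partner of calnexin, which was at 839.7 ± 59.1 CPM in shSCR, 918 ± 15.4 with sh68 and 1076 ± 113 with sh72 and rose by 0.24 on the mean (adjusted p = 1.53e-04). The groups were formed after the members' values were known, and their difference was not tested.

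**Figure D5:**
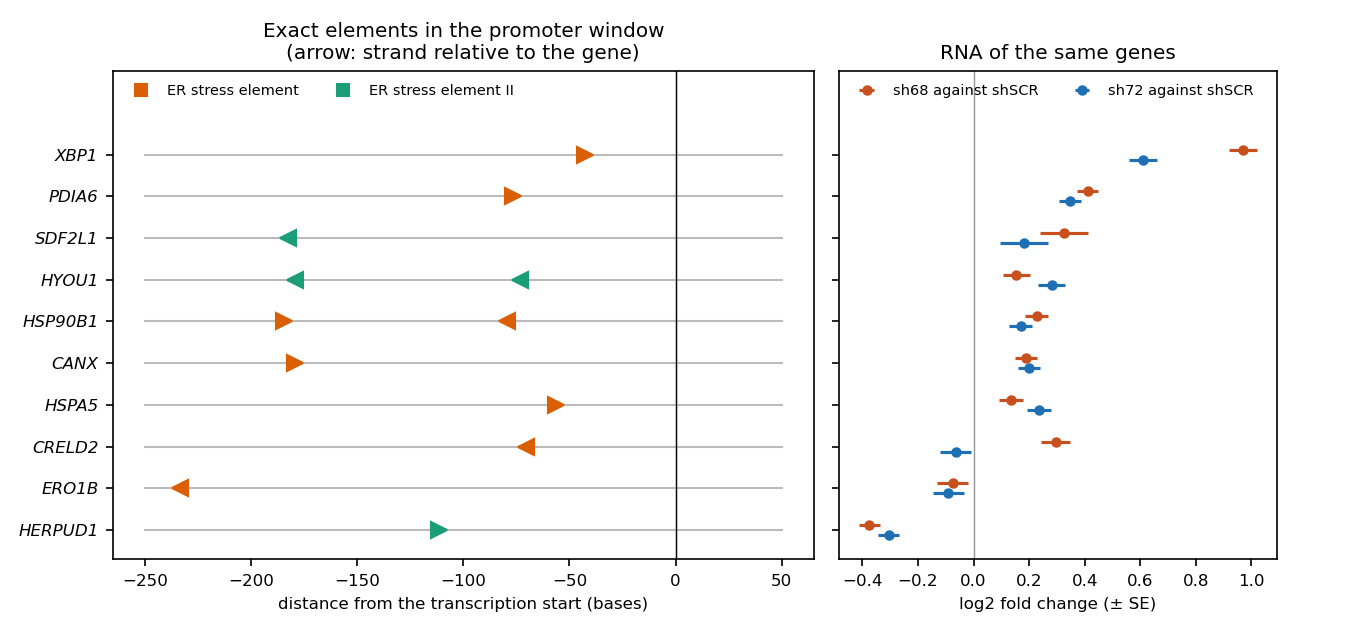
Left, position of each exact ER stress element (orange) and element II (green) in the promoter windows of the 10 members that hold one (x axis, bases from the transcription start; the arrow gives the strand). Right, log2 fold change of the same genes with sh68 (orange) and sh72 (blue) against shSCR, with SE bars. HERPUD1 is lowest and XBP1 highest.

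Further genes of the same pathways, outside the 40, moved in both directions. Of all tested genes, 24.9% were higher and 27.5% lower on the mean, 27.4% and 28.1% with sh68, and 24.7% and 26.3% with sh72. In the 9 lists, 28.6% to 73.7% of the tested genes passed on the mean, beside 52.3% of all. Among 12 partners of IRE1 and ATF6, 3 rose and 4 fell on the mean (4 and 3 with sh68, 2 and 3 with sh72). NFYA, a subunit of NF-Y, was at 139 ± 5.24 CPM in shSCR, 121 ± 3.79 with sh68 and 97.2 ± 4.79 with sh72, and fell by 0.35 on the mean. The other subunits are named after their values were seen. NFYC rose by 0.18 on the mean (adjusted p = 5.81e-04), and NFYB rose with sh68 (0.23, adjusted p = 0.0032) and did not pass on the mean (0.08, adjusted p = 0.248). MBTPS2, the protease that releases ATF6, rose by 0.25, and TRPT1 fell by 0.20. Of 13 genes of the PERK branch and ATF4 targets, 3 rose and 1 fell on the mean (2 and 3 with sh68, 5 and 1 with sh72), and TRIB3 fell by 0.16. The 3 that rose, named after their values were seen, were CHAC1 (0.44, adjusted p = 0.0085), SESN2 (0.18, adjusted p = 0.0040) and ASNS (0.10, adjusted p = 0.0212), of which each passed with sh72 and none with sh68. Of 3 tested genes of the CREB3 family, CREB3L4 rose by 0.28 and CREB3 fell by 0.29.

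In the translocon, signal recognition and signal peptidase, 4 of 22 rose and 6 fell on the mean (3 and 10 with sh68, 6 and 5 with sh72). TRAM2, a protein beside the channel, rose by 0.70 and SRPRA, the receptor of the signal recognition particle, by 0.53, while SSR2 fell by 0.29. Of 19 genes of N-glycosylation and glycoprotein folding, 8 rose and 6 fell on the mean (8 and 7 with sh68, 6 and 3 with sh72). UGGT2, which senses misfolded glycoproteins, rose by 0.36 and STT3A, a catalytic subunit of the oligosaccharyltransferase, by 0.31. Of 21 other ER chaperones and oxidoreductases, 2 rose and 4 fell on the mean (6 and 5 with sh68, 7 and 7 with sh72). Among them TMX4 rose by 0.48, TMX2 fell by 0.39 and FKBP2 fell by 0.34.

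Of 17 further genes of ER-associated degradation, 4 rose and 5 fell on the mean (4 and 5 with sh68, 4 and 7 with sh72). MAN1B1, which trims mannose, fell by 0.28, FAF2, which recruits the extracting ATPase, fell by 0.22, and FAM8A1, a cofactor of SYVN1, rose by 0.23. Of 18 genes of the COPII coat and its receptors, 4 rose and 7 fell on the mean (2 and 8 with sh68, 6 and 5 with sh72). The coat subunit SEC23A fell by 0.35 and KDELR1, which returns escaped ER proteins, fell by 0.20, while SAR1B, the GTPase that starts the coat, rose by 0.21. Of 10 plasma cell regulators and products, 5 rose and 1 fell on the mean (4 and 0 with sh68, 3 and 2 with sh72), with JCHAIN higher by 0.66 ± 0.0391 (adjusted p = 1.24e-12).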

How the data were processed

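Polyadenylated RNA of 9 OCI-Ly1 libraries was measured. The authors deposited a table of counts, raw whole-number reads of each gene symbol in each library. Per the submitters' processing notes, CASAVA 1.8.2, STAR 2.5.2, featureCounts 1.5.2 and hg38 were used (parameters, annotation and strand setting: not given in the sources used here).

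Genes were kept by filterByExpr (minimum count 10, total 15), scaled by TMM and fitted with edgeR 4.0.16 in R 4.3.3, with a term for shSCR, sh68 and sh72. Quasi-likelihood tests were adjusted by the method of Benjamini and Hochberg over all 15725 genes, with a threshold of 0.05. The SE is the absolute log2 fold change over the square root of F. CPM uses the TMM-scaled library size. The model recovered seeded changes of at least 1.5-fold, set in a small share of genes and equal in both LSD1 arms, when tested on simulated data. Smaller changes, such as those of most members, were not simulated. Other settings tried were scaling by RLE or by library size alone, no filter, DESeq2 1.42.0, limma-voom (limma 3.58.1), only the arms compared, a replicate block, a minimum of 1.5-fold, the LSD1 libraries as 1 group, and each library left out.

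Positions and promoters are from RefSeq (GRCh38.p14), exon lengths and overlaps from GENCODE 29. Every member is named; of 9 further lists, up to 3 genes each are named, those with the largest change on the mean that passed there and, with the same sign, with each shRNA. The members and lists were chosen with earlier results of these data known. Since the labels do not say what the triplicates share, p-values measure the spread between these samples, which may be technical.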

Additional observations from a re-analysis of the deposited data

Results flagged for a closer look

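PDIA3 and SEC61B were picked out because they moved in opposite directions with the shRNAs. The log2 difference of sh72 minus sh68 was 0.387 for PDIA3 (adjusted p = 1.27e-08) and 0.382 for SEC61B (adjusted p = 7.83e-07), and in both genes every sh72 library lay above every sh68 library. PDIA4 was picked out because 1 of its 6 LSD1 libraries, sh72 replicate 1 at 286 CPM, stood apart, with a gap to the next library of 0.697 of the whole range. That library was not high in PDIA4 alone. Its summed chaperones stood at 1958 CPM, against 1812 and 1884 in sh72 replicates 2 and 3, and its lectin and disulfide genes at 2450, against 2275 and 2375. It was also the highest for degradation (1144 against 1113 and 1121) and translocation (583 against 566 and 554). For the sensors it was not (170 against 163 and 172). Chance flags about 1 in 20 groups whose libraries share a mean, and 38 members were examined. The 6 LSD1 libraries join sh68 and sh72, so that rate need not hold here.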

How the results depend on the processing

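No member reversed its direction in a comparison it had passed, under any of the alternatives run. Tested against a minimum of 1.5-fold, 2 members passed on the mean (2 higher, 0 lower), 4 with sh68 (3 higher, 1 lower), 1 with sh72 (1 higher, 0 lower) and 2 in sh72 minus sh68 (1 higher, 1 lower). With the 6 LSD1 libraries as 1 group, whose spread then holds any gap between sh68 and sh72, 17 members passed, 11 of them higher and 6 lower, beside 22.8% of all genes. EIF2AK3 (adjusted p = 0.089), EDEM1 (0.062), DNAJB9 (0.089) and ERN1 (0.072) did not pass there. With the replicate block, 35 members passed on the mean, 32 with sh68, 29 with sh72 and 26 in sh72 minus sh68, beside 54.9%, 58.3%, 53.6% and 58.4% of all genes. Libraries with the same number had residual correlations of -0.036 to 0.072 over all tested genes. These do not settle whether the numbers stand for a batch, which could act on some genes only. With each library left out in turn, the members that passed numbered 27 to 32 on the mean, 31 to 32 with sh68, 25 to 28 with sh72 and 19 to 23 in sh72 minus sh68. Of all genes, 44.5% to 52.9%, 49.4% to 57.6%, 45.4% to 50.2% and 50.8% to 55.5% passed in those runs. Those higher numbered 18 to 22, 19 to 20, 17 to 20 and 10 to 13, and those lower 7 to 11, 12 in each run, 6 to 9 and 8 to 13; the 7 came without shSCR replicate 2. DESeq2 called 27 members on the mean, beside 27.2% of the 26816 genes of the table. That base holds the thinly read genes under the filter, so its share cannot be set beside those of the genes tested. The limma-voom fit called 33, beside 52.0% of the genes tested. The call of SEC61A1 on the mean (adjusted p = 0.047) and that of CRELD2 (adjusted p = 0.0415) lie near the threshold. That of SEC61A1 was lost with RLE scaling (adjusted p = 0.093), scaling by size only (0.26), no filter (0.105) and DESeq2 (0.072). It was also lost without shSCR replicate 1 (0.23) or 2 (0.19). With DESeq2, CRELD2 (adjusted p = 0.059) and SDF2L1 (0.084) did not pass on the mean. ATF6B, with few reads, did not pass on the mean with DESeq2 (adjusted p = 0.10). DERL3 and CREB3L2 had too few reads for a test. Exons of DERL3 overlap those of SMARCB1 on the opposite strand over 87.3% of their length, and SMARCB1 had at most 4 reads in a library. Whether mapping or counting lowered the reads of DERL3 was not tested.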
